A study of Caenorhabditis elegans with 8 samples.

Results

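The libraries labelled as RNA interference (RNAi) against isoform C of vab-3 were compared with empty-vector libraries, and together they make up 5 of the 8 libraries of the series. They were chosen by their labels: 3 libraries of isoform C RNAi (numbers 1, 2 and 3) and 2 on the empty vector L4440 (numbers 1 and 3). All animals were hermaphrodites of the wild-type strain N2, which carry no further allele or transgene in the labels. RNAi began in synchronized young adults, and whole worms were collected at 5 days of adulthood. Another group, 3 libraries of isoform A RNAi, enters the fit and serves as a second point of comparison. No label says whether replicates came from separate cultures, so p-values measure only the spread between these samples, which may be technical. Because RNA came from whole worms, fewer cells of a type and less RNA per cell cannot be told apart.

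vab-3 encodes the worm counterpart of Pax6, a transcription factor with a paired domain and a homeodomain that acts in patterning of the head epidermis, in sensory organs and in gonad migration. Shorter products of the locus lack the paired domain. In feeding RNAi, worms take up double-stranded RNA, Dicer cuts it into small RNAs, and RNA-dependent RNA polymerases amplify these against the matching transcript. The response spreads between tissues but is weak in neurons of the wild type.

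Counts of the targeted gene went against the label. vab-3 (WBGene00006870) had 137, 87 and 168 counts in the libraries labelled isoform C, against 83 and 64 in the empty-vector libraries. Scaled to library size, these are 4.08, 2.04 and 4.84 CPM (counts scaled to library size) and 2.23 and 2.12 CPM. Library 2 lay below both empty-vector libraries and the other two lay above, so the groups overlapped. The log2 difference was 0.74 ± 0.33 (SE; edgeR quasi-likelihood test, adjusted p = 0.700), and it ran from 0.48 to 1.05 with 1 library left out. The isoform A libraries held 4.43, 5.52 and 4.38 CPM, all above both empty-vector libraries. The libraries are therefore called C-labelled from here on. Counts are per gene and do not separate isoforms, and whether reads of the supplied RNA are among them was not tested.

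Depth was similar in both groups, with 33104621 to 43364047 counts in the C-labelled libraries and 30446927 to 36511475 in the empty-vector libraries. The first principal component of the 5 libraries held 36.3% of the variance, with C-labelled libraries at 13.5, -33.9 and -12.97 and empty-vector libraries at 28.4 and 4.92. The second held 30.5%, with C-labelled libraries at -31.7, -6.65 and 4.72 and empty-vector libraries at 4.15 and 29.5. Neither component alone separated the groups, and a separation along both was not tested. Defining markers of the tissues were present: summed intestine markers measured 200.4 to 241 CPM in C-labelled and 228 to 242 CPM in empty-vector libraries, and germline and oocyte markers 3650 to 3722 and 3662 to 3819 CPM. Body wall muscle markers measured 360 to 546 CPM against 275 to 376 CPM, and pharynx markers 23.3 to 34.7 CPM against 10.98 to 28.6 CPM. Sperm markers were low, at 0.894 to 2.95 CPM and 0.631 to 1.13 CPM. Glial markers (1.19 to 1.56 and 1.096 to 1.48 CPM) and embryo markers (2.74 to 3.19 and 2.95 to 3.43 CPM) were low as well, and of the embryo markers med-1 was at 0 in some libraries of both groups.

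Worms of the C-labelled libraries had almost no transcript of a cytochrome P450 gene, a chitinase-like gene and a receptor kinase gene, and more transcript of an alpha-mannosidase gene, a cysteine protease gene and the cubilin gene. edgeR called 14 genes, 0.0948% of the 14772 tested at an adjusted p under 0.05, of which 9 were higher (0.0609%) and 5 lower (0.0338%). Over all genes the median log2 difference was -0.014. Unadjusted, 1084 genes had a p under 0.05, 638 of them higher (4.32%) and 446 lower (3.02%). The count of calls rests on few libraries. It was 2 and 1 without empty-vector library 1 or 3, and 3, 3 and 6 without C-labelled library 1, 2 or 3. Apart from cyp-34A4, each of the 14 lost its call without at least 1 of these 5 libraries.

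**Figure D1:**
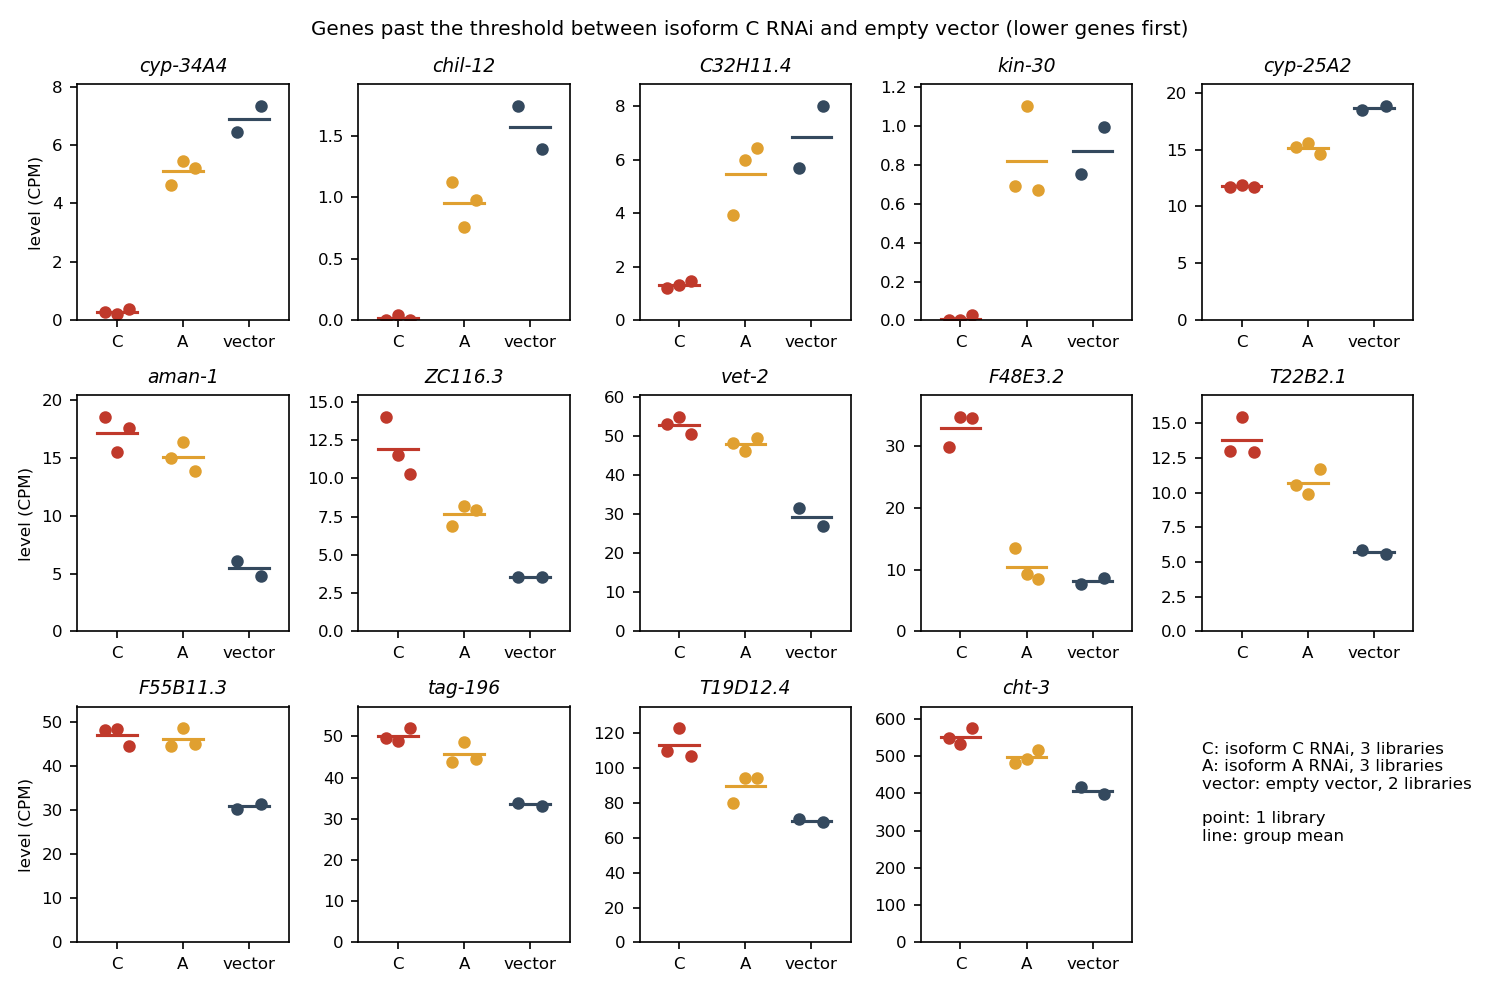
Levels of the 14 genes past the threshold, in CPM, with 1 point per library and a line at each group mean; isoform C RNAi (3 libraries), isoform A RNAi (3) and empty vector (2). The C-labelled points lie apart from both empty-vector points in every panel, and cyp-34A4, chil-12 and kin-30 lie near 0 in the C-labelled libraries alone.

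Cytochrome P450 enzymes oxidise small molecules, both foreign compounds and the worm's own lipids and sterols. cyp-34A4 (WBGene00020386, named dach-1 in the annotation) is a gene of 7 exons on chromosome V, 3950023 to 3952097, forward strand, build WBcel235. It measured 0.298, 0.211 and 0.403 CPM in the C-labelled libraries, against 6.44 and 7.34 CPM in the empty-vector libraries. Every C-labelled library lay far below both others, and the log2 difference was -4.50 ± 0.24 (edgeR, adjusted p = 4.03e-04). This was the single gene that stayed past the threshold whichever of the 8 libraries was left out, with log2 differences between -4.76 and -4.26. The isoform A libraries held 4.63, 5.45 and 5.20 CPM, and the C-labelled libraries were lower than these too (log2 difference -4.07, adjusted p = 6.48e-04).

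Its relatives beside it on the chromosome did not share the difference. cyp-35B1 measured 16.7, 15.6 and 16.5 CPM in C-labelled libraries and 10.7 and 7.37 CPM in empty-vector libraries (edgeR, adjusted p = 0.648), so it stood higher. cyp-35B2 measured 1.22, 1.52 and 0.893 CPM against 0.939 and 0.531 CPM. On the other side, cyp-34A5 measured 1.64, 1.31 and 2.25 CPM against 2.12 and 1.93 CPM, and its groups overlapped. cyp-34A6 lay at 0.518 CPM or below in all 5 libraries, and cyp-35B3 and str-247, a chemoreceptor gene, had at most 1 count in any of them.

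The second pair of lower genes are neighbours on chromosome V, 752 bases apart and on the same strand. chil-12 (WBGene00010799, 4 exons, 15241559 to 15244003) belongs to the chitinase-like genes, a family known for induction by oomycetes, which are natural pathogens of the worm. It had 0, 2 and 0 counts in the C-labelled libraries, 39, 22 and 38 in the isoform A libraries and 65 and 42 in the empty-vector libraries. The C-labelled level was 0.0114 of the empty-vector level (95% counting interval 0.00136 to 0.0420; edgeR, adjusted p = 0.0135).

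kin-30 (WBGene00002211, 8 exons, 15244756 to 15247786) encodes a predicted receptor tyrosine kinase. It had 0, 0 and 1 counts in the C-labelled libraries, 24, 32 and 26 in the isoform A libraries and 28 and 30 in the empty-vector libraries. The ratio was 0.0105 (95% counting interval 2.6e-04 to 0.0607; edgeR, adjusted p = 0.0222). Both genes were also lower than in the isoform A libraries (adjusted p = 0.0337 for each). The flanking genes nhr-164, srw-12, srw-11, srd-28, srbc-76 and srbc-75, a nuclear receptor and chemoreceptors, summed to at most 4 counts over the C-labelled and over the empty-vector libraries, so no difference at them was detectable at this depth. DESeq2 gave no adjusted p for chil-12 or kin-30.

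C32H11.4 (WBGene00007867, chromosome IV, 12921264 to 12923296) is counted here with the dod and CUB-like genes, which respond to insulin signalling and to infection. It measured 1.19, 1.31 and 1.47 CPM in C-labelled libraries, 3.94, 5.97 and 6.44 CPM in isoform A libraries and 5.69 and 8.00 CPM in empty-vector libraries. The C-labelled libraries were lower than either (log2 difference -2.36 ± 0.25 from empty vector, adjusted p = 0.0147, and -2.04 from isoform A, adjusted p = 0.0366). Nearby, C32H11.1 (irg-6 in the annotation) measured 8.76, 5.41 and 2.74 CPM against 5.37 and 4.42 CPM. C32H11.3 measured 0.477, 0.281 and 0.432 CPM against 0.429 and 0.398 CPM, and the groups overlapped at both. The other neighbours, srz-15, C32H11.5, C32H11.6 and C32H11.8, had at most 7 counts in any C-labelled or empty-vector library. That is too few to show whether they shared the difference.

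cyp-25A2 (WBGene00007964, chromosome III, 3835221 to 3837211) had the smallest change of the lower genes and the tightest replicates. It measured 11.7, 11.9 and 11.7 CPM in C-labelled libraries, 15.2, 15.6 and 14.6 CPM in isoform A libraries and 18.5 and 18.8 CPM in empty-vector libraries (log2 difference from empty vector -0.67 ± 0.09, adjusted p = 0.0449). Its call was lost with DESeq2 size factors and whichever single library was left out, although the log2 difference stayed between -0.68 and -0.65. Here the cyp-25A relatives on either side leaned the same way. cyp-25A1 measured 7.51, 9.42 and 9.07 CPM against 14.2 and 19.02 CPM (log2 difference -0.94, adjusted p = 0.203), and cyp-25A3 measured 5.07, 4.38 and 3.80 CPM against 5.23 and 5.41 CPM. Reads shared between these similar genes could have been split by the counting, so the single values are uncertain. The other neighbours did not lean lower. R13G10.4 stood higher, at 0.745, 0.586 and 0.432 CPM against 0.403 and 0.365 CPM (log2 difference 0.61, adjusted p = 0.841). C36A4.11 and C36A4.4 had overlapping groups, and C36A4.10 was not tested.

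**Figure D2:**
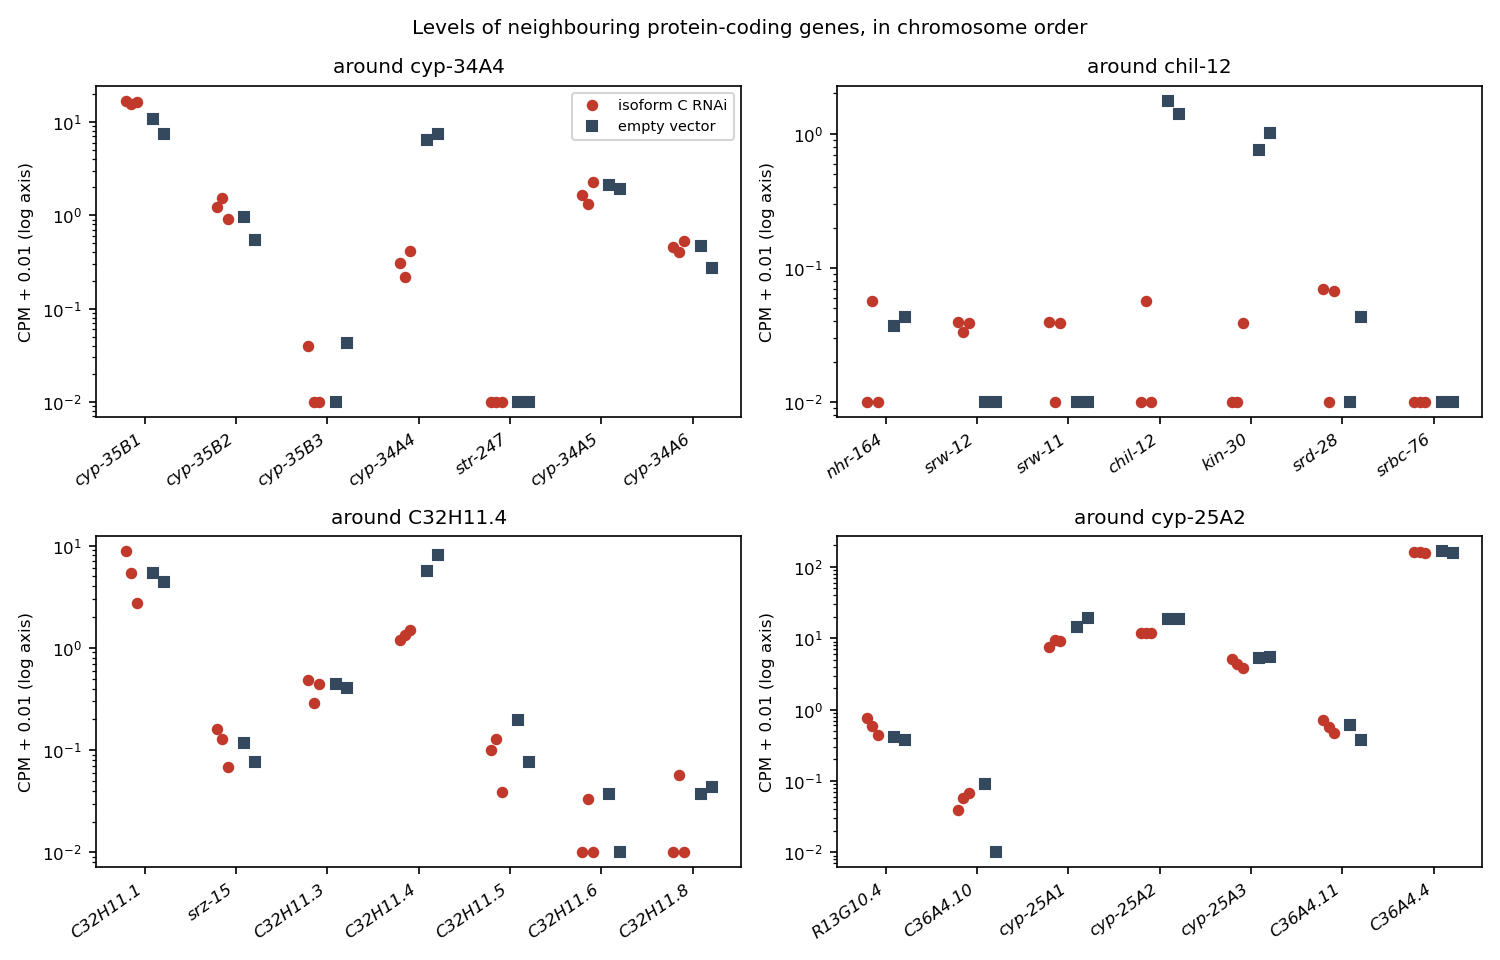
Levels of each lower gene and its 3 nearest protein-coding genes on either side, in CPM plus 0.01 on a log axis, with isoform C RNAi libraries as circles and empty-vector libraries as squares. cyp-34A4 and C32H11.4 stand alone among those of their neighbours that have more than a few counts. chil-12 and kin-30 are low together between genes with almost no counts, and cyp-25A1 lies below the empty-vector libraries beside cyp-25A2.

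aman-1 (WBGene00018877, chromosome X, 4733095 to 4738592, 21 exons) encodes an alpha-mannosidase, and it rose. It measured 18.5, 15.5 and 17.5 CPM in C-labelled libraries, against 6.09 and 4.81 CPM in empty-vector libraries (log2 difference 1.65 ± 0.15, edgeR adjusted p = 0.0135). The isoform A libraries, at 15.02, 16.4 and 13.8 CPM, lay at nearly the same level. The call was lost without either empty-vector library, but with each of the other 6 left out it was kept.

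ZC116.3 (WBGene00013855, cubn-1 in the annotation, chromosome V, 12611329 to 12628749, 42 exons) is the worm counterpart of cubilin, a large endocytic receptor. It measured 14.01, 11.5 and 10.3 CPM in C-labelled libraries, 6.91, 8.18 and 7.90 CPM in isoform A libraries and 3.57 and 3.55 CPM in empty-vector libraries (log2 difference from empty vector 1.74 ± 0.17, adjusted p = 0.0135). The 3 groups formed 3 separate steps. cyc-2.2 and F56H9.9 lie within this gene on the opposite strand, and the library kit does not mark strand, but they had only 27 and 1 counts over the C-labelled libraries.

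tag-196 (WBGene00007055, chromosome V, 8594914 to 8597469) encodes a cathepsin F-like cysteine protease. It measured 49.6, 48.8 and 52.02 CPM in C-labelled libraries and 33.8 and 33.1 CPM in empty-vector libraries (log2 difference 0.58 ± 0.07, adjusted p = 0.0250). The chitinase gene cht-3 (WBGene00016084, chromosome IV, 7003623 to 7009268) was the most abundant of the called genes per length, at 170.3 ± 8.38 RPKM in C-labelled (SD, n = 3) and 126 ± 6.97 RPKM in empty-vector libraries (SD, n = 2). In CPM it measured 549, 531 and 575 against 417 and 398 (log2 difference 0.44 ± 0.06, adjusted p = 0.0418).

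vet-2 (WBGene00016453, chromosome I, 10846772 to 10850103) is one of the very early transcripts, which the embryo makes soon after its genome becomes active. It measured 53.0, 54.8 and 50.6 CPM in C-labelled libraries, 48.1, 46.1 and 49.5 CPM in isoform A libraries and 31.6 and 26.9 CPM in empty-vector libraries (log2 difference from empty vector 0.85 ± 0.08, adjusted p = 0.0135). Both RNAi groups stood above both empty-vector libraries.

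The other genes that rose have no role stated here. F48E3.2 (WBGene00018603, chromosome X, 7490394 to 7493120, reverse strand) measured 29.7, 34.7 and 34.5 CPM in C-labelled libraries, 13.5, 9.35 and 8.50 CPM in isoform A libraries and 7.59 and 8.67 CPM in empty-vector libraries. It is the one gene past the threshold as higher against either group, with log2 differences of 2.02 ± 0.20 from empty vector (adjusted p = 0.0135) and 1.66 from isoform A (adjusted p = 0.0337). gly-12 overlaps it by 314 bases on the opposite strand, and its counts summed to 374 over the C-labelled and 219 over the empty-vector libraries.

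T22B2.1 (chromosome X, 3926076 to 3929574) measured 13.03, 15.5 and 12.96 CPM against 5.85 and 5.61 CPM in empty-vector libraries (log2 difference 1.27 ± 0.13, adjusted p = 0.0147). F55B11.3 (chromosome IV, 14424696 to 14425569) measured 48.2, 48.4 and 44.6 CPM against 30.3 and 31.5 CPM (0.61 ± 0.07, adjusted p = 0.0244). T19D12.4 (chromosome II, 6631105 to 6637098) measured 110.05, 123 and 107 CPM against 70.8 and 69.1 CPM (0.70 ± 0.09, adjusted p = 0.0418). T19D12.5 and T19D12.6 overlap T19D12.4 on the opposite strand, and the counts of T19D12.5 summed to 109 over the C-labelled and 24 over the empty-vector libraries. Those of T19D12.6, which overlaps by only 24 bases, summed to 4755 and 2836, so part of the value of T19D12.4 is uncertain.

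edgeR called 6 genes between the C-labelled and isoform A libraries, 0.0406% of those tested (1 higher, 0.00677%, and 5 lower, 0.0338%), and 5 of these are among the 14: cyp-34A4, chil-12, kin-30 and C32H11.4 as lower and F48E3.2 as higher. The sixth was the collagen gene col-150, with 0.507, 0.422 and 0.490 CPM in C-labelled libraries and 1.93, 2.24 and 1.83 CPM in isoform A libraries (log2 difference -2.07, adjusted p = 0.0337). For the remaining 9 the difference from isoform A did not pass, with log2 differences between -0.36 (cyp-25A2) and 0.64 (ZC116.3). Over the same 9, isoform A minus empty vector ran from -0.30 (cyp-25A2) to 1.46 (aman-1), in a comparison that shares the empty-vector libraries. None passed there (edgeR, lowest adjusted p = 0.0799, for aman-1), which does not show that isoform A lacked these differences. All 14 genes had the same sign in isoform A as in C-labelled libraries, but they were chosen against the same empty-vector libraries, which favours equal signs. At kin-30 the isoform A difference was only -0.094 ± 0.41. F55B11.3 measured 44.6, 48.7 and 45.0 CPM in isoform A libraries, near the C-labelled level. T19D12.4 measured 79.9, 94.1 and 94.6 CPM, between the other groups. Leaving out isoform A library 1 gave 748 calls between the RNAi groups, and leaving out any other library gave 1, with cyp-34A4 past the threshold each time.

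The next 10 genes by p with a mean of at least 5 CPM did not pass the threshold. dod-6, named for lying downstream of the FOXO factor DAF-16, measured 9.24, 11.2 and 12.4 CPM in C-labelled libraries and 22.8 and 21.5 CPM in empty-vector libraries (log2 difference -1.02 ± 0.14, adjusted p = 0.0616). fpn-1.1, a ferroportin iron exporter gene, measured 34.1, 37.99 and 36.3 CPM against 25.9 and 26.7 CPM (0.46, adjusted p = 0.173). vet-1, another very early transcript, measured 32.5, 29.8 and 34.1 CPM against 18.8 and 17.2 CPM (0.83, adjusted p = 0.124). Y62H9A.6, Y44A6C.2, ZK813.3, Y57G11B.5 and W02D9.7 also stood higher, with log2 differences of 0.40, 1.02, 0.41, 0.79 and 0.42, and F49C12.7 and PDB1.1 stood lower, at -1.46 and -0.76. The groups did not overlap at any of these 10, which choosing them by p in the same libraries favours.

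Gene families were described by how many tested members had all 3 C-labelled libraries above, or below, both empty-vector libraries. Over all genes tested these shares were 12.7% (1876 genes) above and 15.5% (2285 genes) below. Apart from the 14 genes, no member of any list passed the threshold, so the counts below describe these libraries.

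**Figure D3:**
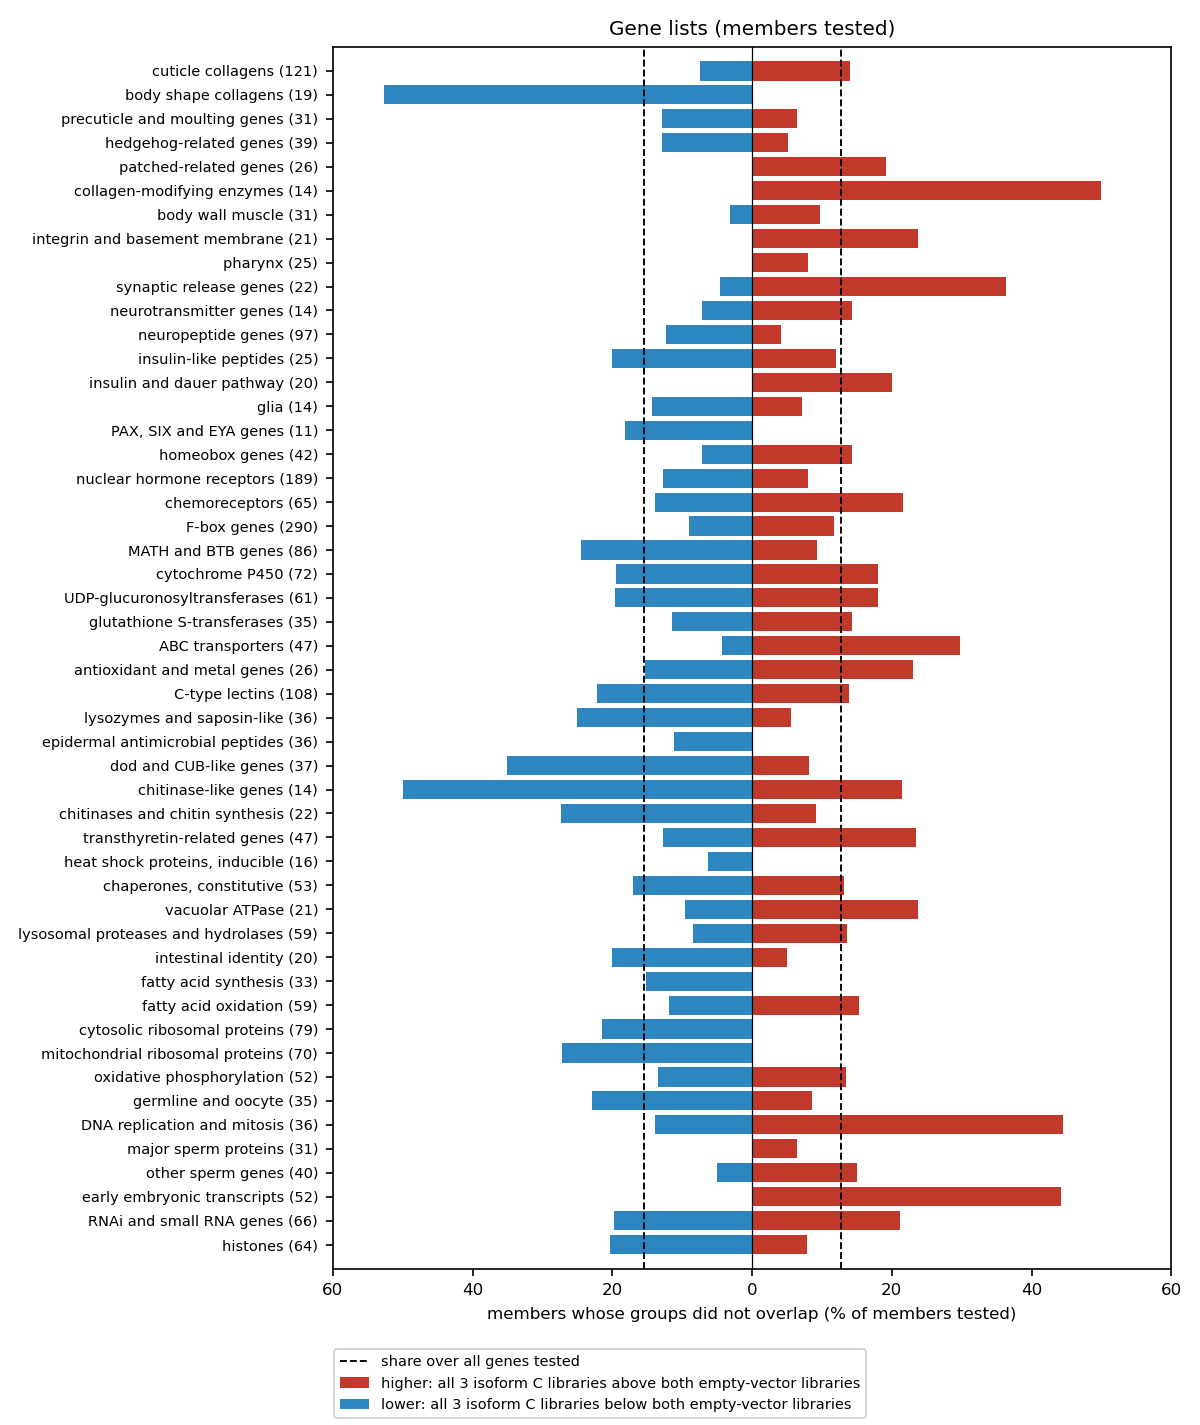
Share of tested members of each list whose isoform C RNAi libraries all lay above (right, red) or all below (left, blue) both empty-vector libraries, with dashed lines at the shares over all genes tested, 12.7 and 15.5%. Collagen-modifying enzymes, DNA replication genes and early embryonic transcripts reach farthest to the right, and body shape collagens and chitinase-like genes farthest to the left.

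Early embryonic transcripts stood mostly higher. Of 52 tested, 43 had a positive log2 difference, 23 (44.2%) lay above both empty-vector libraries and 0 lay below, with a median of 0.31. vet-2 was the one member past the threshold. pes-10, a transcript of early somatic blastomeres, measured 7.72, 10.03 and 8.41 CPM in C-labelled libraries and 3.25 and 4.75 CPM in empty-vector libraries (log2 difference 1.13 ± 0.21, adjusted p = 0.203). The redundant T-box genes tbx-37 and tbx-38, which act in pharynx and anterior fate in the embryo, measured 3.58, 3.80 and 3.31 against 1.45 and 1.76 CPM, and 4.92, 6.47 and 6.28 against 2.63 and 3.29 CPM. vet-6 measured 32.6, 28.5 and 22.5 CPM against 17.01 and 11.8 CPM, and sdz-29, named for regulation by SKN-1 in the embryo, 7.15, 6.66 and 6.65 CPM against 4.29 and 4.58 CPM. By library, the list's median lay 0.38, 0.29 and 0.19 above the empty-vector mean on the log2 scale. The isoform A libraries lay at 0.46, 0.35 and 0.38. Each median without a single C-labelled or empty-vector library stayed between 0.25 and 0.44. The summed embryo markers pes-1, end-1, med-1 and hlh-1 overlapped between the groups, as given above. Most of that sum was pes-1, at 2.18 to 2.21 CPM in C-labelled and 1.79 to 2.496 CPM in empty-vector libraries. hlh-1 measured 0.461 to 0.894 CPM against 0.886 to 0.996 CPM. end-1 and med-1 had at most 6 counts in any of these libraries. The sum therefore rests mainly on pes-1 and cannot show whether embryo content differed.

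**Figure D4:**
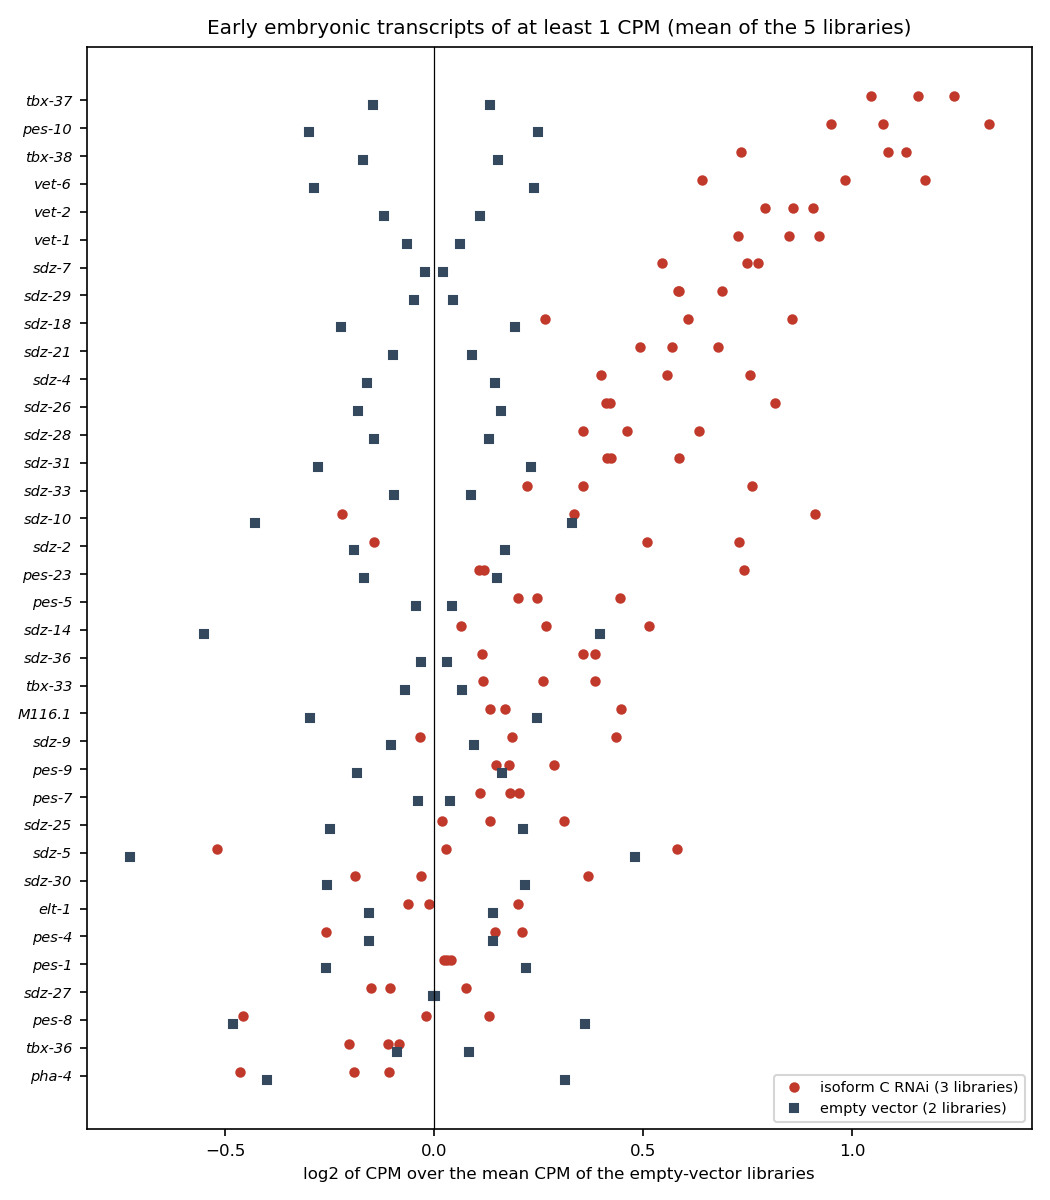
The 36 early embryonic transcripts with a mean of at least 1 CPM, as log2 of each library's CPM over the mean of the empty-vector libraries, with isoform C RNAi libraries as circles and empty-vector libraries as squares. From tbx-37 and pes-10 at the top down to sdz-33, all circles lie right of both squares.

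DNA replication and cell cycle genes leaned the same way by small amounts. Of 36 tested, 16 (44.4%) lay above and 5 (13.9%) below, with a median of 0.04. All 6 subunits of the MCM helicase, which unwinds DNA at origins, were among the higher ones, such as mcm-4 with 501, 502 and 499 CPM against 451 and 449 CPM. The ribonucleotide reductase gene rnr-1 measured 834, 842 and 789.8 CPM against 713 and 708 CPM (log2 difference 0.21, adjusted p = 0.356), and the topoisomerase gene top-2 979.8, 911 and 925 CPM against 826 and 775 CPM. On the lower side were the kinesin gene klp-7, the centromeric histone gene hcp-3 and the centriole genes sas-4 and sas-5, with log2 differences of -0.16, -0.13, -0.07 and -0.13. Germline and oocyte genes had a median of -0.04, with 8 of 35 (22.9%) below both empty-vector libraries. They included puf-5 and puf-11, RNA-binding repressors of oocyte transcripts (-0.13 and -0.14), and the meiotic axis gene htp-1 (-0.20).

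Sperm genes followed single libraries. Of 31 major sperm protein genes, 30 had a positive log2 difference and the median was 1.19, yet only 2 (6.45%) lay above both empty-vector libraries. Relative to the empty-vector mean, the list's median was -0.42 in C-labelled library 1, 1.89 in library 2 and 0.75 in library 3, and leaving out library 2 brought it to 0.32. msp-33 measured 0.149, 1.69 and 0.720 CPM against 0.268 and 0.232 CPM. These genes are near-identical copies, so single values are uncertain. Other sperm genes had medians of -0.17, 1.05 and 0.23 by library and of -0.00 without library 2. C-labelled library 2 held the highest summed sperm markers of its group, at 2.95 CPM. These markers include the major sperm protein genes msp-3 and msp-76, so they are no separate observation.

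**Figure D5:**
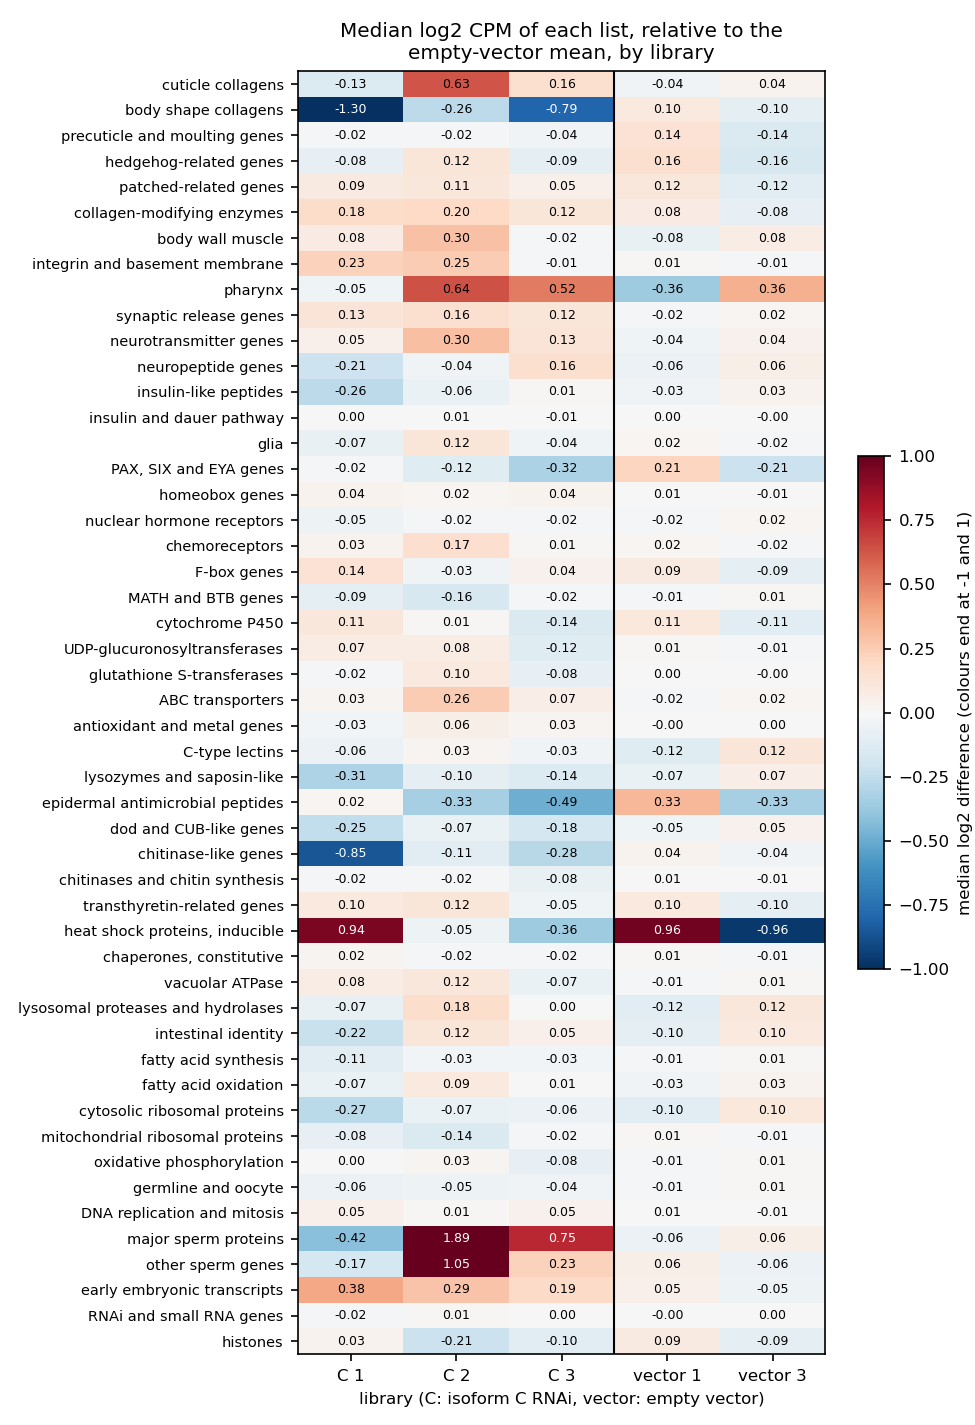
Median log2 CPM of each list of at least 10 tested members in each library, relative to the mean of the empty-vector libraries; isoform C RNAi libraries stand left of the line and empty-vector libraries right of it. Sperm lists differ between the C-labelled libraries, inducible heat shock genes are high in both libraries numbered 1, and early embryonic transcripts are positive in all 3 C-labelled libraries.

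The cuticle is built from collagens that are cross-linked after secretion, and the body shape collagens and the modifying enzymes leaned opposite ways. Of 19 collagens named for body shape mutants, 17 had a negative log2 difference, 10 (52.6%) lay below both empty-vector libraries and 0 above, with a median of -0.65. dpy-2 measured 1.04, 1.48 and 1.87 CPM in C-labelled libraries and 3.35 and 2.72 CPM in empty-vector libraries (log2 difference -1.05 ± 0.56, adjusted p = 0.758). dpy-10, another furrow collagen gene, measured 4.59, 5.62 and 5.91 CPM against 7.78 and 7.97 CPM, and sqt-3 measured 9.09, 17.01 and 11.2 CPM against 21.8 and 20.6 CPM. The list's median lay at -1.30, -0.26 and -0.79 by C-labelled library, at 0.46, 3.13 and 2.78 in the isoform A libraries and at 0.10 and -0.10 in the empty-vector libraries. Without C-labelled library 1 it was -0.41 and without library 2 -1.04.

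The broader set of 121 cuticle collagens did not share this. It had a median of 0.25, with 14.05% of members above and 7.44% below, close to or under the shares of all genes, and its median was -0.04 without C-labelled library 2. Enzymes that modify collagens stood on the higher side, with 7 of 14 (50.0%) above, 0 below and a median of 0.17. By library, their median was 0.18, 0.20 and 0.12 in C-labelled and 0.36, 0.54 and 0.54 in isoform A libraries. The prolyl 4-hydroxylase gene dpy-18 measured 36.2, 37.1 and 32.7 CPM against 28.8 and 26.2 CPM (log2 difference 0.36 ± 0.09, adjusted p = 0.356). The dual oxidase gene bli-3, whose product cross-links collagen, measured 17.98, 18.7 and 16.4 CPM against 15.3 and 12.4 CPM, and the disulfide isomerase gene pdi-1 measured 562, 553 and 529.7 CPM against 499 and 483 CPM.

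Genes of basement membranes and migrating gonad cells had 5 of 21 members (23.8%) above, 0 below and a median of 0.18. mig-6, the papilin gene needed for migration of the distal tip cells, measured 89.5, 96.8 and 73.9 CPM in C-labelled libraries and 41.03 and 52.6 CPM in empty-vector libraries (log2 difference 0.89 ± 0.26, adjusted p = 0.486). The peroxidasin gene pxn-2, for a matrix enzyme, measured 5.13, 4.71 and 3.57 CPM against 2.87 and 2.59 CPM. lag-2, the Notch ligand gene of the distal tip cell, measured 1.46, 1.66 and 1.56 CPM against 0.993 and 0.730 CPM. The list's median by C-labelled library was 0.23, 0.25 and -0.01. The isoform A libraries lay higher, at 0.50, 1.01 and 0.61, with mig-6 at 99.9, 177 and 128 CPM.

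Body wall muscle genes had a median of 0.10, with 9.68% of members above and 3.23% below. The higher ones included atn-1, with 77.9, 77.0 and 70.1 CPM against 67.1 and 61.4 CPM (edgeR, adjusted p = 0.631). act-2 stood higher too, at 1328, 1464.5 and 1249 CPM against 1178 and 1244 CPM. The titin-like gene unc-22 measured 35.9, 42.7 and 29.7 CPM against 21.4 and 29.8 CPM, with overlapping groups. Pharynx genes had a median of 0.29, but the empty-vector libraries themselves lay at -0.36 and 0.36, a spread as wide as the C-labelled values of -0.05, 0.64 and 0.52.

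Genes of the PAX, sine oculis and EYA network, in which vab-3 acts, were tested for 11 of 18 members, and the others did not pass the expression filter. Their median was -0.08, between -0.28 and 0.22 with 1 of the 5 libraries left out, with 0 above and 2 below, pax-3 and dac-1. The sine oculis-class homeobox gene ceh-32, which acts downstream of vab-3 in the head, measured 28.6, 20.95 and 24.2 CPM in C-labelled libraries and 24.3 and 15.5 CPM in empty-vector libraries (log2 difference 0.30 ± 0.24, adjusted p = 0.829), with overlapping groups. Its relative unc-39 measured 4.38, 2.34 and 2.33 CPM against 4.56 and 2.66 CPM. Glial genes had a median of 0.00 over 14 of 19 tested, with 1 above and 2 below. alr-1, a homeobox gene of amphid sheath development, measured 2.27, 1.83 and 2.103 CPM against 2.28 and 2.56 CPM. Homeobox genes in general had a median of 0.02 over 42 tested, with ceh-40, ceh-39 and ceh-37 at 0.39, 0.18 and 0.22.

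Among neuronal genes, those for synaptic vesicle release stood higher, with 8 of 22 (36.4%) above, 1 below and a median of 0.15. Without empty-vector library 1 that median was 0.075. By library, it was 0.13, 0.16 and 0.12 in C-labelled and 0.20, 0.69 and 0.29 in isoform A libraries. unc-18, which guides vesicle fusion, measured 70.2, 76.8 and 56.2 CPM against 53.3 and 49.7 CPM (log2 difference 0.40 ± 0.13, adjusted p = 0.533). The priming gene unc-13 measured 7.75, 7.78 and 7.69 CPM against 5.93 and 6.18 CPM, while the clathrin adaptor gene unc-11 stood lower, at 112.4, 116 and 117 CPM against 119.4 and 124 CPM. The GABA synthesis gene unc-25 measured 3.46, 3.56 and 3.51 CPM against 2.66 and 2.29 CPM, and tdc-1, for tyrosine decarboxylase, 339.9, 318 and 339.5 CPM against 377 and 363 CPM. The summed general neuron markers overlapped, at 152 to 168 CPM against 159 to 162 CPM. Most of that sum was snb-1, at 139 to 153 CPM against 146 to 148 CPM. Singly, unc-119 and rab-3 overlapped as well, but rgef-1 stood higher, at 0.715 to 1.07 CPM against 0.564 to 0.598 CPM. Neuropeptide genes had a median of -0.01 over 97 members. Insulin-like peptides had one of -0.04, with ins-19 at 1.64, 4.12 and 3.05 CPM against 10.3 and 10.9 CPM (log2 difference -1.85 ± 0.39, adjusted p = 0.324). Of the chemoreceptor genes, 65 of 1630 were tested, and 21.5% lay above and 13.8% below. Their median of 0.087 fell to -0.0023 without C-labelled library 1 and to -0.017 without empty-vector library 3. srr-4, the member with the smallest p, measured 10.6, 12.2 and 11.2 CPM against 7.19 and 6.41 CPM.

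The defence genes counted with C32H11.4 stood mostly lower. Of 37 dod and CUB-like genes, 13 (35.1%) lay below both empty-vector libraries and 3 (8.11%) above, with a median of -0.14. dod-22 measured 1.67, 1.76 and 2.02 CPM in C-labelled libraries and 4.08 and 4.55 CPM in empty-vector libraries (log2 difference -1.25 ± 0.23, adjusted p = 0.203). dod-24 measured 17.1, 25.4 and 24.5 CPM against 32.7 and 49.97 CPM, but dod-19 stood higher, at 743, 745 and 690.3 CPM against 479 and 530.2 CPM. Of 14 chitinase-like genes, 7 (50.0%) lay below and 3 (21.4%) above, and 1, chil-12, fell. Apart from chil-12 the 6 lower ones were all under 1 CPM, so their values rest on few counts. The list's median by library was -0.85, -0.11 and -0.28, and it was -0.26 without C-labelled library 1 and -0.72 without library 2.

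Lysozymes and saposin-like proteins attack bacterial cell walls and membranes. Of 36 lysozyme and saposin-like genes, 9 lay below and 2 above. spp-1 measured 43.3, 39.7 and 42.5 CPM against 66.7 and 60.6 CPM (log2 difference -0.61 ± 0.14, adjusted p = 0.324), and spp-14 measured 347, 375 and 308 CPM against 424 and 435 CPM. C-type lectins went both ways, with 13.9% of 108 above and 22.2% below, and, among members of 1 CPM or more, the 3 with the lowest p, clec-145, clec-160 and clec-258, all stood higher (0.96, 0.49 and 0.65). Epidermal antimicrobial peptides had a median of -0.33, but the empty-vector libraries lay at 0.33 and -0.33. Without empty-vector library 1 the median was 0.12.

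Detoxification runs from oxidation by P450s through conjugation to export. Of 72 P450 genes, 13 (18.1%) lay above and 14 (19.4%) below, 2 fell (cyp-34A4 and cyp-25A2) and the median was 0.01. Some members that stood higher were uneven between libraries: cyp-33C8 measured 83.8, 95.4 and 51.04 CPM against 26.2 and 20.6 CPM, and cyp-13A7 9.18, 16.9 and 3.40 CPM against 1.26 and 2.29 CPM. In both, C-labelled library 3 was the lowest of its group. The conjugating UDP-glucuronosyltransferases were balanced in the same way, with 11 above and 12 below of 61. ugt-58 measured 60.9, 64.2 and 55.2 CPM against 47.9 and 40.2 CPM, and ugt-13 2.33, 2.48 and 1.73 CPM against 5.23 and 3.72 CPM. Glutathione S-transferases had a median of 0.03.

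ABC transporters, which pump lipids and conjugates across membranes, leaned higher, with 14 of 47 (29.8%) above, 2 below and a median of 0.11. The P-glycoprotein gene pgp-4 measured 18.004, 18.9 and 16.4 CPM in C-labelled libraries and 11.5 and 9.86 CPM in empty-vector libraries (log2 difference 0.73 ± 0.17, adjusted p = 0.342). abt-4 measured 78.7, 123 and 90.1 CPM against 51.7 and 62.0 CPM, and pgp-10 3.85, 3.23 and 4.06 CPM against 2.76 and 2.29 CPM. Among metal genes the importer gene smf-1 stood higher (17.6, 18.6 and 19.7 against 14.8 and 14.4 CPM), and the ferritin gene ftn-2 lower (133, 143 and 151 against 163 and 171 CPM). The metallothionein gene mtl-1 measured 20.99, 12.05 and 33.1 CPM against 50.6 and 46.6 CPM.

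The rise of aman-1 and tag-196 was not shared by lysosomal genes at large. Of 59 lysosomal proteases and hydrolases, 8 (13.6%) lay above and 5 (8.47%) below, with a median of 0.01. The glucocerebrosidase gene gba-2 stood lower, at 2.71, 2.37 and 1.38 CPM against 5.96 and 4.52 CPM (log2 difference -1.28 ± 0.31, adjusted p = 0.350), as did the lipase gene lipl-2, at 3.73, 3.80 and 7.32 CPM against 7.51 and 9.59 CPM. Vacuolar ATPase genes had a median of 0.05. Intestinal identity genes had one of 0.02, and yolk protein genes overlapped between groups, with vit-6 at 24154, 29978 and 27058 CPM against 19152 and 26520 CPM. In peroxisomal and mitochondrial fat breakdown, acox-2 measured 4.02, 4.31 and 5.44 CPM against 8.69 and 13.8 CPM and cpt-5 3.19, 4.52 and 4.61 CPM against 6.36 and 6.94 CPM. acdh-10 stood higher, at 136, 133 and 121 CPM against 115 and 108 CPM, and the median of this list was 0.03.

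All 79 cytosolic ribosomal protein genes tested had a negative log2 difference, with a median of -0.13, and 17 (21.5%) lay below both empty-vector libraries. The list's median by library was -0.27, -0.07 and -0.06, against -0.10 and 0.10 in the empty-vector libraries, and it was -0.06 without C-labelled library 1, -0.24 without empty-vector library 1 and -0.02 without empty-vector library 3. rpl-38 measured 425, 469 and 454 CPM against 505 and 532 CPM. Of 70 mitochondrial ribosomal protein genes, 19 (27.1%) lay below and 0 above, with a median of -0.09, such as mrpl-36 with 12.4, 12.6 and 12.96 CPM against 16.6 and 14.9 CPM. Oxidative phosphorylation genes had a median of -0.02.

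The machinery of RNAi itself was examined because the treatment works through it. Of 66 RNAi and small RNA genes, 14 (21.2%) lay above and 13 (19.7%) below, with a median of 0.01. The log2 difference was positive for 33 and negative for 33, so the list leaned neither way. The 3 named next were taken by smallest p, and all stood higher. nrde-3, the Argonaute that carries small RNAs into the nucleus, measured 122, 123 and 114 CPM in C-labelled libraries and 98.5 and 93.2 CPM in empty-vector libraries (log2 difference 0.32 ± 0.06, adjusted p = 0.203). The RNA-dependent RNA polymerase gene rrf-1, which amplifies small RNAs in somatic tissue, measured 125, 122 and 128 CPM against 109 and 103 CPM (adjusted p = 0.324). The nucleotidyltransferase gene cid-1 measured 246, 243 and 241 CPM against 213 and 216 CPM.

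Inducible heat shock genes tracked the replicate number. Their median was 0.94 in C-labelled library 1, -0.05 in library 2 and -0.36 in library 3. The isoform A libraries lay at 0.90, -0.44 and -0.32. Empty-vector libraries 1 and 3 lay at 0.96 and -0.96, so the library numbered 1 was high in every group, and the C-labelled and empty-vector ranges overlapped. The mitochondrial chaperone gene hsp-6, of the constitutive list, stood higher, at 1102, 1012 and 974 CPM against 904 and 865 CPM (log2 difference 0.22, adjusted p = 0.455).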

How the data were processed

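Whole-worm RNA-seq of 8 libraries was analysed: 3 labelled isoform C RNAi, 3 labelled isoform A RNAi and 2 on the empty vector. The submitters' processing notes name bcl2fastq 1.8.4, TopHat2 2.1.0, featureCounts 1.5.0 and build WBcel235. How multi-mapping reads were counted, and with which annotation release, is not given in the sources used here. The authors deposited raw counts for 46739 genes, RPM values (counts scaled to the library total) and RPKM values (RPM per kilobase of gene). RPM entered no result, and RPKM were used only to compare levels between genes.

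Counts were tested with edgeR 4.0.16 (R 4.3.3; quasi-likelihood F test, robust) in 1 model of 3 groups over all 8 libraries, with TMM factors and edgeR's expression filter, which kept 14772 genes. Two-sided p-values were adjusted over all genes tested (Benjamini-Hochberg, threshold 0.05). The standard error (SE) of a log2 difference is its size divided by the square root of F. CPM use TMM-scaled library sizes, and list medians by library use log2 CPM with a prior count of 2. The fits were tested on a single draw of simulated counts. There, not all changed genes were recovered, and the share of false calls lay above the threshold of 0.05. DESeq2 1.42.0 and limma-voom (limma 3.58.1) were alternatives, and each library was left out in turn. Counting intervals are exact, at 95%, and cover counting error only.

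The members and the 51 gene lists were chosen with earlier results of these data known. The gene classes rpa and clc were taken out of 2 lists after values had been seen, because they are not ribosomal and not CUB-like genes. Genes considered for naming were vab-3, every gene past the threshold and the next 10 of at least 5 CPM by p. To these were added the 3 members of each list with at least 1 CPM and the smallest p, and the 3 protein-coding neighbours on each side of the lower genes. Some of these list members and neighbours, and some whole lists, are not given in the text. Other members named as not overlapping were chosen after their values were seen. Symbols follow the deposited table. Coordinates were taken from the Ensembl annotation of the same build. Same-numbered libraries of isoform C and the controls deviated together, with correlations of 0.319 (number 1) and 0.199 (number 3) across genes. With only 2 pairs, and with no label saying what a number stands for, they were not treated as paired. No 2 libraries of these groups agreed within sampling noise (chi-square of at least 19.3 per degree of freedom), so none was merged as a repeated deposit. Separate libraries of 1 RNA could differ as much.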

Additional observations from a re-analysis of the deposited data

How the results depend on the processing

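Between the C-labelled and empty-vector libraries edgeR called 14 genes. The count was 23 (15 higher, 8 lower) with only these 5 libraries in the fit and 155 (123 higher, 32 lower) with DESeq2. With the replicate number as a block, which is no test of pairing or of a batch, it was 102 (54 higher, 48 lower). It ran from 1 to 15 with 1 library left out. DESeq2 size factors, limma-voom, a mean of at least 1 CPM, no filter and a non-robust spread gave 13, 12, 11, 21 and 11. DESeq2 called 12 of the 14 and gave no adjusted p for chil-12 and kin-30. C32H11.4 and T19D12.4 were lost with limma-voom, and T19D12.4, cht-3 and cyp-25A2 with a non-robust spread. Between the C-labelled and isoform A libraries (6 genes), DESeq2 called 663, a mean of at least 1 CPM 3, no filter 12 and the replicate block 1702. Leaving out 1 library gave 1 to 748. The causes were not tested. Over up to 16 alternatives the 14 genes kept their direction in all 220 values and their call in 150. Of the 166 named genes, 7 changed sign in 8 values. With 1 library left out, F15A4.6 ran from -0.061 to 0.74 on the log2 scale, ins-17 from -0.092 to 0.48, unc-39 from -0.62 to 0.18, fipr-24 from -2.53 to 0.060, fipr-22 from -1.94 to 0.024, hsp-43 from -0.088 to 0.70 and rme-2 from -0.0043 to 0.039. With the block rme-2 was at -0.0050. With 2 empty-vector libraries, leaving out either assumes that the remaining one varies like the other groups. Groups of 2 and 3 libraries are too small to test a single library as an outlier. Genes under about 1 CPM rest on few counts, and list medians of 0.1 or less are within the differences between libraries of a group.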

Other observations

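Further families were described in the same way, against 12.7% above and 15.5% below over all genes tested. Of 290 F-box genes, 34 (11.7%) lay above both empty-vector libraries and 26 (8.97%) below. fbxb-17 measured 5.22, 5.11 and 5.91 CPM in C-labelled libraries and 3.62 and 3.25 CPM in empty-vector libraries. MATH and BTB genes, which serve as adaptors of ubiquitin ligases, had 21 of 86 (24.4%) below, 8 (9.30%) above and a median of -0.10. math-45 stood lower, at 2.24, 1.78 and 2.30 CPM against 3.06 and 3.32 CPM. math-33, the member with the smallest p, stood higher, at 384, 386 and 390 CPM against 358 and 343 CPM. Of 189 nuclear hormone receptor genes, 15 lay above and 24 below. nhr-2, an early embryonic receptor gene, measured 37.02, 36.5 and 34.5 CPM against 29.1 and 26.7 CPM, and nhr-62 measured 5.13, 5.20 and 4.72 CPM against 7.25 and 6.64 CPM (edgeR, adjusted p = 0.426 for each). Of 47 transthyretin-related genes, 11 (23.4%) lay above and 6 below, with ttr-44 at 4.56, 5.98 and 5.39 CPM against 9.18 and 10.7 CPM. Histone genes had a median of -0.12 with 13 of 64 (20.3%) below, and that median was -0.01 without empty-vector library 1.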
